A study of Mus musculus musculus x Mus musculus castaneus with 12 samples.

Results

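The 38 Hox genes followed here, of 24346 genes in the count tables, were taken by symbol from all 4 mammalian Hox clusters, 10 from Hoxa, 10 from Hoxb, 9 from Hoxc and 9 from Hoxd. RNA-seq was done on 12 libraries of F1 hybrid mouse embryonic stem (ES) cells in which Kdm6a, the X-linked gene of a demethylase of lysine 27 of histone H3, was intact or deleted. Male BC cells, from a C57BL/6J (BL6) mother and a Mus castaneus (cast) father, gave 2 wild-type (wt) libraries and 3 knockout (KO) clones, the exonic deletions ΔE1 and ΔE3 and the promoter deletion ΔP4. Male CB cells, from the reciprocal cross, gave 2 wt libraries and the KO clones ΔE2.5, ΔE2.7 (exonic) and ΔP2.1 (promoter). A female wt BC line gave 2 further libraries. Each KO library was 1 clone, so that clonal differences and the deletion cannot be told apart within a clone. ΔE1 and ΔE3 came from 1 editing event and share an off-target deletion of 3 other X-linked genes, so that the 3 BC clones stand for 2 events, and the CB wt line carries an actin-GFP transgene. Sex and cell line cannot be told apart in the female libraries, nor cross and cell line between the BC and CB wt libraries. The question addressed was which Hox clusters had transcripts in undifferentiated ES cells, and how their levels moved in each clone and in each cross.

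Hox genes encode homeodomain transcription factors that specify position along the body axis. They lie in clusters in the order in which they are used, so that low-numbered (anterior) genes are transcribed early and toward the head, and high-numbered (posterior) genes later and toward the tail. In ES cells the clusters are known to be held silent by Polycomb complexes, whose mark, trimethylation of lysine 27 of histone H3 (H3K27me3), is removed by KDM6A. Retinoic acid and the CDX factors are known inducers of the anterior and central genes.

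The Hoxa cluster spanned chr6:52162417-52260880 and lay on the minus strand of GRCm38 (GENCODE vM21), where the members of the other clusters lay on the plus strand. The other spans were chr11:96194316-96368256 for Hoxb, chr15:102921103-103036852 for Hoxc and chr2:74668310-74765142 for Hoxd. A homeobox of 180 bases was found in the coding sequence of all 38 members, in the last exon. Hoxc13 and Hoxd13, of paralogous group 13, were the members above 1 TPM (transcripts per kilobase of transcript, scaled to library size) in every library, and the homeoboxes of their group are shown because the 4 genes had to be counted apart. Capitals mark bases that differ from Hoxc13, aligned base for base without gaps.

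Hoxc13 (chr15:102927210-102927389, plus strand, exon 2): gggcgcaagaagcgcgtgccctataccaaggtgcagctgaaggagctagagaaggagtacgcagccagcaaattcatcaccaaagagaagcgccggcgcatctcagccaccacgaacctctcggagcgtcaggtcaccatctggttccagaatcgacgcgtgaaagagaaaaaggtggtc
Hoxa13 (chr6:52258928-52259107, minus strand, exon 2): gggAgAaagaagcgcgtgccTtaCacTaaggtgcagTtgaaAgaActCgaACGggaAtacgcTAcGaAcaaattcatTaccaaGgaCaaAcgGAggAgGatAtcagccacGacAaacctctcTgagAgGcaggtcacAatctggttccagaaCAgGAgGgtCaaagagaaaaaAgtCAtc
Hoxb13 (chr11:96196020-96196199, plus strand, exon 2): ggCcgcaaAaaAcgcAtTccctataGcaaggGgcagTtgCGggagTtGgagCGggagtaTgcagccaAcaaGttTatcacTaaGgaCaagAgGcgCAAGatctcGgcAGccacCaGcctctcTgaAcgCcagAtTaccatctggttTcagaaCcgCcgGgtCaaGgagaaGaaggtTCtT
Hoxd13 (chr2:74669930-74670109, plus strand, exon 2): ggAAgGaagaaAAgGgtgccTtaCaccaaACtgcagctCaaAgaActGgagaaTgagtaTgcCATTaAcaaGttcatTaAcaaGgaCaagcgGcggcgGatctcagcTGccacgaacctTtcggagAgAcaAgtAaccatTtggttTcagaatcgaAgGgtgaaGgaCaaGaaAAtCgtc

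The Hoxa13 homeobox was 77.2% identical to that of Hoxc13, that of Hoxd13 75% and that of Hoxb13 73.9%, and the longest stretch without a difference was 14 bases, so a 75-base read within it could be placed. Over whole transcripts, the longest run of bases that any of the 13 members above 1 TPM in some library shared with another member was 17 to 50 bases, under the read length of 75. Of 703 member pairs, only Hoxc5 with Hoxc10 and Hoxd3 with Hoxd4 shared a run as long as a read, in both cases because annotated transcripts overlap, so values of these 4 genes are uncertain. Another annotated gene overlapped 22 members, 13 of them on the opposite strand. The library kit did not keep strand, so reads of a Hox gene and of its antisense partner could not be told apart.

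The KO clones had been made with 4 guides. They are given because the deletion type differs between clones, with the PAM in capitals and the position of the 20 guide bases on GRCm38.

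ΔE Left (chrX:18163390-18163409, Kdm6a exon 2): gaaacctcacgaacccgaaaAGG
ΔE Right (chrX:18208733-18208752): tagcattatctgcataccagAGG
ΔP Left (chrX:18160528-18160547): ggacactgcatgtttgatggAGG
ΔP Right (chrX:18164295-18164314): agctacatactccaaaggagAGG

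The ΔE pair spans 45363 bases and the ΔP pair 3787 bases, which include the annotated start of Kdm6a. Kdm6a stood at 49.8 and 51.3 TPM in the BC wt libraries, at 11.6 in ΔE1, 13.5 in ΔE3 and 0.0441 in ΔP4. It stood at 51.0 and 51.7 TPM in the CB wt libraries, at 2.07 in ΔE2.5, 7.28 in ΔE2.7 and 0.0365 in ΔP2.1, and at 65.0 in each female library. Each KO clone lay below its wt libraries, and the exonic clones kept reads from the undeleted exons. Libraries held 49975599 to 89070402 assigned fragments, of which the 38 Hox genes took 724 to 2052. All 12 ES cell markers were detected in every library, with summed levels of 7058 to 18685 TPM.

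Hox transcripts were scarce in every library. The 38 members summed to 18.4 and 19.5 TPM in BC wt, 16.8 and 17.1 TPM in CB wt and 15.4 and 16.1 TPM in female wt cells. Only 13 members passed 1 TPM in at least 1 library (Hoxa5, Hoxa7, Hoxb1, Hoxb2, Hoxb7, Hoxb9, Hoxb13, Hoxc4, Hoxc13, Hoxd1, Hoxd8, Hoxd9 and Hoxd13), and 27 had at least 1 fragment in every library. Hoxc13 and Hoxd13 passed 1 TPM in all 12 libraries and Hoxd1 in 11. Counting error weighs on such values, and a count of 0 allows up to 3 fragments in a library. In bulk RNA, fewer cells with a transcript and less transcript per cell cannot be told apart.

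**Figure D1:**
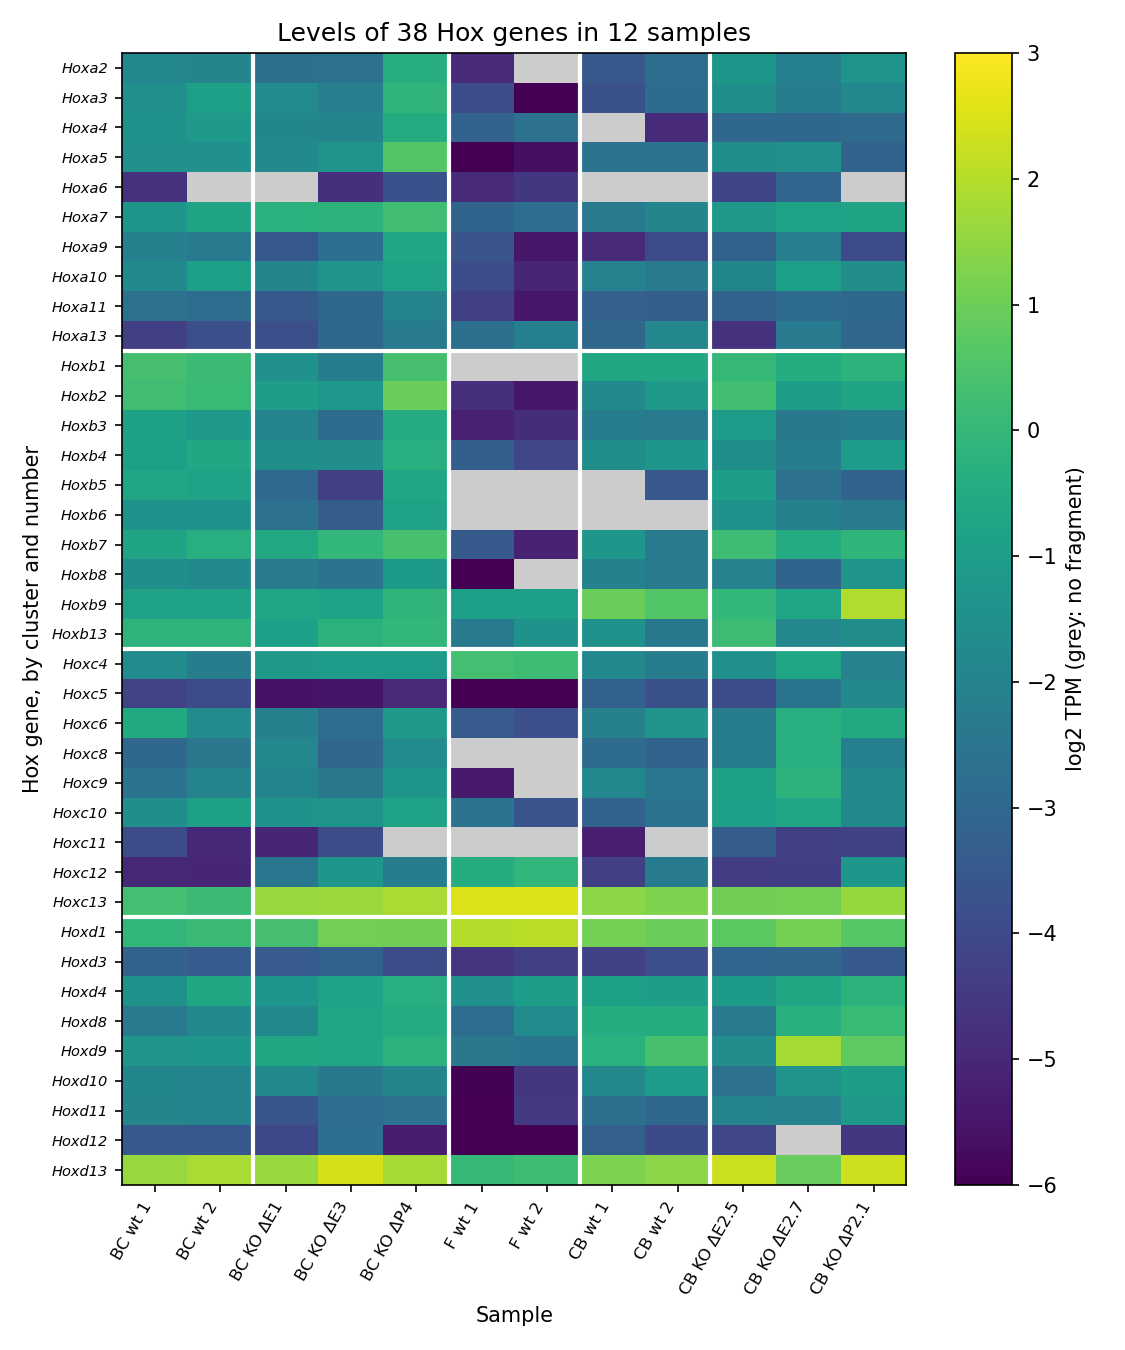
Heat map of log2 TPM for 38 Hox genes (rows, by cluster and number) in 12 libraries (columns, by group), with grey cells where no fragment was counted. Hoxc13, Hoxd1 and Hoxd13 stand out in the groups, and the female libraries have the most empty cells, 5 and 8 members at 0.

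By cluster, Hoxd and Hoxb held most of the Hox signal in male BC wt cells. The summed Hoxd level was 5.77 and 6.79 TPM, Hoxb 6.98 and 6.80, Hoxc 3.05 and 2.73, and Hoxa 2.59 and 3.16. In CB wt cells the sums were 7.22 and 8.04 for Hoxd, 4.54 and 3.90 for Hoxb, 3.98 and 3.75 for Hoxc, and 1.05 and 1.42 for Hoxa. In female wt cells Hoxc led, at 8.01 and 7.83 TPM, followed by Hoxd at 5.68 and 6.5, while Hoxb stood at 1.00 and 1.05 and Hoxa at 0.734 and 0.701. Hoxc13 alone made up 71.6% and 70.9% of the Hoxc sum in the female libraries. The 2 libraries of each wt group lay close together, and the order of the clusters differed between the lines. In BC wt cells Hoxb and Hoxd did not differ beyond the spread of their libraries, and neither did Hoxc and Hoxa, and Hoxb and Hoxc overlapped in CB wt cells.

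The clusters did not move together in the KO clones. In the BC cross, the sums relative to the wt mean were 0.840 in ΔE1, 0.970 in ΔE3 and 2.38 in ΔP4 for Hoxa, and 0.552, 0.565 and 1.39 for Hoxb. Hoxc was above wt in all 3 clones, at 1.68, 1.72 and 2.12 times, and Hoxd was at 0.987, 1.56 and 1.34 times. Thus ΔP4 alone was high for Hoxa, both exonic clones were low for Hoxb, and all 3 were high for the Hoxc sum. Hoxc13 alone made up 41.0% and 39.7% of that sum in BC wt, and 62.1%, 63.5% and 58.9% in ΔE1, ΔE3 and ΔP4. In the CB cross, Hoxa was at 1.85 (ΔE2.5), 2.19 (ΔE2.7) and 1.76 (ΔP2.1) times the wt mean, Hoxb at 1.76, 0.903 and 1.88, Hoxc at 1.08, 1.59 and 1.42, and Hoxd at 1.06, 1.28 and 1.48. All CB clones lay above both wt libraries for the Hoxa, Hoxc and Hoxd sums, and ΔE2.7 alone was not above wt for Hoxb. For Hoxd the margin of ΔE2.5 was small, at 8.08 TPM beside 8.04 in CB wt library 2. Hoxd13 made up 59.5% of that ΔE2.5 sum. Only 3 of the 9 Hoxd members were above both wt libraries in ΔE2.5 and 6 were below, beside 35.6% and 48.0% of all genes.

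**Figure D2:**
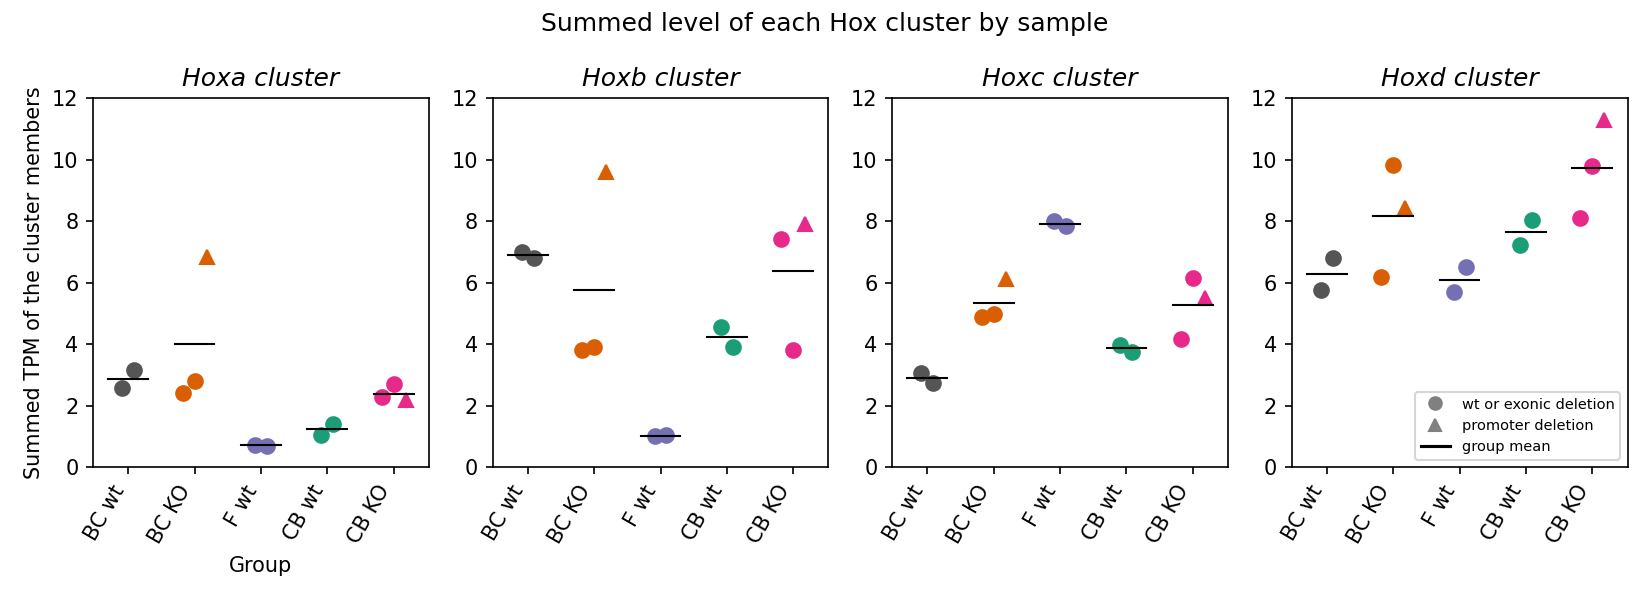
Summed TPM of the members of each Hox cluster (y axis) in each library, by group (x axis), with circles for wt and exonic deletions, triangles for promoter deletions and bars for group means. The BC promoter clone ΔP4 stands at 6.83 TPM for Hoxa, above the other BC libraries, and the female libraries are low for Hoxa and Hoxb and high for Hoxc.

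As group means, the Hoxa sum in CB KO clones was 1.94 ± 0.23 times wt (SD, n = 3) and the sum over all members 1.40 ± 0.16 times. In BC KO clones the corresponding values were 1.40 ± 0.85 and 1.23 ± 0.37, with an SD over the clones larger than the distance from wt in both cases. Without ΔP4 the BC ratio was 0.905 for Hoxa and 0.559 for Hoxb, where all 3 clones gave 0.837 for Hoxb. With 3 KO and 2 wt libraries a one-sided exact permutation test of 1 value cannot go below 0.10, so these sums carry no p-value.

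In the BC cross, edgeR called no Hox gene in KO against wt, and DESeq2 called 1. By edgeR's quasi-likelihood test with Benjamini-Hochberg adjustment over all genes (called at adjusted p under 0.05 and at least 1.5-fold), 0 of the 8 members above 1 TPM were called, where 0.029% of the 13805 genes tested were. Without the TPM filter 0 of 38 members were called, against 0.0302% of all genes. An unadjusted edgeR p under 0.05 was found for 2 of the 8 (Hoxa7 and Hoxc13), where 1525 of the 13805 genes had one. Hoxa7, like Hoxa5 and Hoxb7, passed the filter only through ΔP4, where it was high, so the fuller count is that over all 38. Without the filter such a p was found for 3 higher members (Hoxa7, Hoxc12 and Hoxc13) and 1 lower member (Hoxd11) of 38. Of all genes, 1995 of 19900 had one, so that the share of the members was close to that of all genes. With ΔE1 and ΔE3 averaged into 1 sample, edgeR again called 0 of the 8. DESeq2 called 1 of the 8, Hoxc13, where it called 1.88% of all genes. A p that misses the threshold does not show that levels did not differ.

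Hoxc13, which acts in hair, nail and tail development, had the lowest edgeR p of the 38 members in this cross. It stood at 1.25 and 1.09 TPM (93 and 85 fragments) in BC wt cells, and at 3.02 in ΔE1, 3.17 in ΔE3 and 3.60 in ΔP4 (241, 240 and 271 fragments). The 3 clones lay close to each other and did not overlap the wt libraries. The log2 fold change was 1.44 ± 0.25 (SE), with an adjusted p of 0.277 by edgeR's quasi-likelihood test and of 0.00011 by DESeq2. With the spread estimated over all 12 libraries, edgeR gave an adjusted p of 0.0201 and called it, and with ΔE1 and ΔE3 averaged the log2 fold change was 1.45 ± 0.24 (edgeR adjusted p = 0.108). Its neighbour Hoxc12 was at 1 fragment in each BC wt library and at 6, 13 and 7 in ΔE1, ΔE3 and ΔP4, with an edgeR adjusted p of 0.353.

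Anterior and central Hoxb genes divided the BC clones. Hoxb1, which acts in the hindbrain, stood at 1.28 and 1.1 TPM in wt, 0.370 in ΔE1, 0.218 in ΔE3 and 1.29 in ΔP4. Hoxb2, its neighbour and also a hindbrain gene, stood at 1.18 and 1.08 TPM in wt, 0.512 in ΔE1, 0.439 in ΔE3 and 1.93 in ΔP4. In both exonic clones these genes were below both wt libraries. In ΔP4 Hoxb2 was above both, and Hoxb1, at 82 fragments against 81 and 73 in wt, was level with wt library 1. The same 8 members of Hoxb (Hoxb1 to Hoxb6, Hoxb8 and Hoxb13) were below both wt libraries in ΔE1 and in ΔE3, which came from 1 editing event. In ΔP4, 9 of the 10 were above both on the TPM scale, Hoxb1 among them by that margin. Among the 8 members above 1 TPM, Hoxb1 had the most negative fold change over the 3 clones, a log2 value of -1.0 ± 0.66 (edgeR adjusted p = 0.617), and -0.67 ± 0.58 with ΔE1 and ΔE3 averaged. In the fit of all 38, Hoxc5 (-1.25), Hoxb5 (-1.23) and Hoxd11 (-1.06) were lower still, with edgeR adjusted p-values of 0.607, 0.638 and 0.463.

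Without ΔP4, the log2 fold change of Hoxb1 was -2.03 ± 0.36 and that of Hoxb2 -1.27 ± 0.30, with edgeR adjusted p-values of 0.107 and 0.157 in the fit without a TPM filter. In that fit 10 of 38 members had an unadjusted p under 0.05, where 2931 of 19686 genes had one, and 6 of these were Hoxb members (Hoxb1 to Hoxb6), all lower than wt. None of the 38 was called. The clone left out is the one that was not low, and the p-values treat the 2 clones of 1 editing event as separate samples. Hoxb5 had 36 and 34 fragments in wt, 8 in ΔE1, 3 in ΔE3 and 36 in ΔP4. Over all 3 clones the median log2 fold change of the 10 Hoxb members was -0.33, beside 0.02 for all genes.

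**Figure D3:**
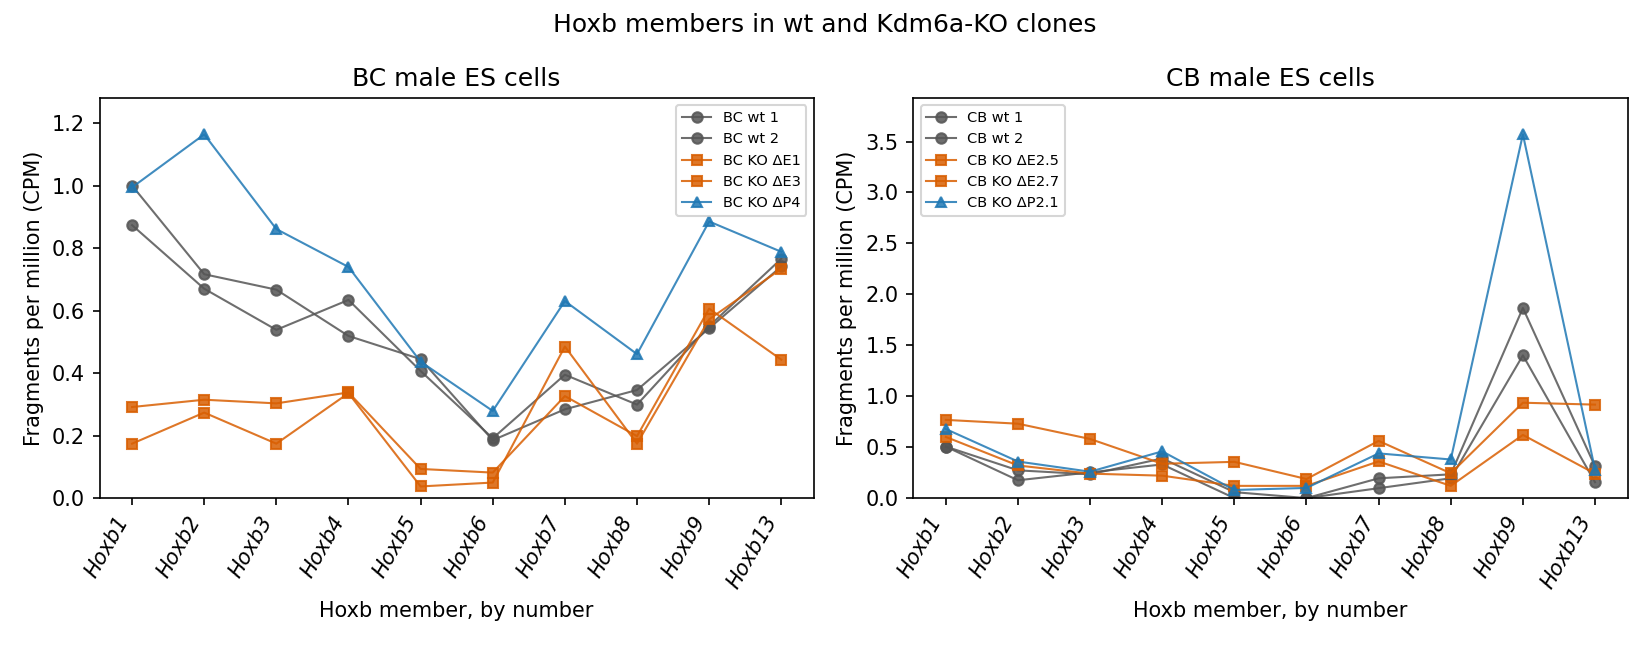
CPM, fragments scaled to library size (y axis, own scale in each panel) of the Hoxb members by number (x axis) in BC male cells (left) and CB male cells (right), with 1 line for each library. In BC cells the lines of ΔE1 and ΔE3 run below both wt lines from Hoxb1 to Hoxb6, while that of ΔP4 runs close to or above them.

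The Hoxa members were high in ΔP4. Hoxa5, which acts in lung and cervical patterning, was at 0.370 and 0.369 TPM in wt, 0.313 in ΔE1, 0.398 in ΔE3 and 1.52 in ΔP4. All 10 Hoxa members were above both wt libraries in ΔP4, against 1 in ΔE1 and 3 in ΔE3. Over the 38 members, 29 were above both wt libraries in ΔP4, 11 in ΔE1 and 13 in ΔE3, where 51.2%, 41.7% and 41.4% of all genes were. The opposite count, below both wt libraries, was 5, 22 and 18 members, beside 27.7%, 34.3% and 37.5% of all genes.

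Hoxa7, of the trunk region, was the Hoxa gene with high values in all BC clones. It stood at 0.412 and 0.595 TPM in wt, 0.846 in ΔE1, 0.889 in ΔE3 and 1.19 in ΔP4. Hoxd1 stood at 0.978 and 1.1 in wt, 1.26 in ΔE1, 2.13 in ΔE3 and 2.06 in ΔP4. For both genes the wt and KO libraries did not overlap. Altogether 8 of 38 members (Hoxa7, Hoxb9, Hoxc4, Hoxc12, Hoxc13, Hoxd1, Hoxd8 and Hoxd9) had every BC KO clone above both wt libraries, where 18.3% of all genes did, and 2 (Hoxc5 and Hoxd11) had every clone below, where 10.5% of all genes did. The shares of the members were 21.1% and 5.26%. Some of these margins were small. Hoxb9 had 46 fragments in ΔE3, the same count as in wt library 2, and Hoxd8 had 26 in ΔE1 beside 25 in wt library 2.

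The other members above 1 TPM were uneven in BC cells. Hoxb7 was at 0.590 and 0.804 TPM in wt and 0.670, 0.982 and 1.32 in ΔE1, ΔE3 and ΔP4, and Hoxb9 at 0.566 and 0.562 in wt and 0.624, 0.581 and 0.928 in the clones. Hoxb13 was at 0.900 and 0.912 TPM in wt and 0.532, 0.869 and 0.964 in the clones, and Hoxc4 at 0.317 and 0.222 in wt and 0.452, 0.475 and 0.495 in the clones. Hoxd13, which patterns digits and the hindgut, was at 3.07 and 3.61 in wt and 3.02, 5.30 and 3.49 in ΔE1, ΔE3 and ΔP4. Hoxb7, Hoxb13 and Hoxd13 overlapped wt. Hoxb9 and Hoxc4 were above both wt libraries in each clone, Hoxb9 in ΔE3 only by the small margin given above. Hoxd8 was at 0.201 and 0.298 TPM in wt and 0.305, 0.604 and 0.721 in the clones, and Hoxd9 at 0.403 and 0.412 in wt and 0.651, 0.609 and 0.858 in the clones.

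In the CB cross more members were above wt, and again none was called. edgeR called 0 of the 9 members above 1 TPM and 0 of 38 without the filter, where it called 0% of all genes in both fits. An unadjusted p under 0.05 was found for 2832 of 13801 genes and, without the filter, for 3099 of 19509 genes and for 8 of 38 members, all higher in KO (Hoxa2, Hoxa3, Hoxa4, Hoxa7, Hoxb6, Hoxb7, Hoxc10 and Hoxd11). DESeq2 called 0 of the 9, where it called 3.58% of all genes. The median log2 fold change was 0.86 over the 38 members (0.85 with Hoxb6 at the bound its wt counts allow and Hoxa6, at or under that floor in both groups, left out) and 0.02 over all genes, and 31 of 38 members were above 0, where 52.3% of all genes were.

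Hoxb7, a trunk gene, had the largest difference among the CB members above 1 TPM. It stood at 0.411 and 0.205 TPM (10 and 5 fragments) in CB wt cells, at 1.17 in ΔE2.5, 0.722 in ΔE2.7 and 0.922 in ΔP2.1. The clones did not overlap the wt libraries. The log2 fold change was 1.66 ± 0.47 with an edgeR adjusted p of 0.172. Hoxb7 passed the filter only through ΔE2.5, where it was high, so its rank among these members depends on the filter. Hoxc10, which stayed under the filter, had 4 and 6 fragments in CB wt and 20, 23 and 11 in the clones. At the other end, Hoxd1 stood at 2.17 and 1.97 TPM in wt and 1.67, 2.17 and 1.57 in the clones, with a log2 fold change of -0.12 ± 0.25 (edgeR adjusted p = 0.81).

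The other anterior and trunk Hoxa and Hoxb genes had small counts in CB cells. Hoxa7 was at 0.212 and 0.264 TPM in wt and 0.450, 0.567 and 0.592 in ΔE2.5, ΔE2.7 and ΔP2.1. Hoxb1 was at 0.662 and 0.661 in wt and 0.986, 0.745 and 0.881 in the clones, and Hoxb2 at 0.294 and 0.456 in wt and 1.20, 0.509 and 0.598 in the clones. All of these lay above wt in each clone. Hoxb6 was at 0 fragments in both CB wt libraries and at 10, 6 and 5 in the clones, at least 2.33-fold higher than a floor of 3 fragments per library. Hoxa5 was at 0.170 in each wt library and 0.347, 0.359 and 0.115 in the clones, so that ΔP2.1 was below wt.

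Counted over the cross, 18 of 38 members had every CB KO clone above both wt libraries (47.4%), 7 from Hoxa, 5 from Hoxb, 4 from Hoxc and 2 from Hoxd, where 12.7% of all genes did (18.3% on CPM with TMM scaling, with the same count of members). Hoxd12 alone had every clone below, where 26.6% of all genes did. Some of these margins were small. In ΔP2.1 Hoxa9 had 4 fragments and Hoxc9 had 13, the same counts as in CB wt library 2 and library 1. Hoxa4 had 0 and 1 fragments in wt and 4 in each clone, and Hoxc11 had 1 and 0 in wt and 4, 2 and 2. Hoxd12 had 5 and 3 fragments in wt and 3, 0 and 2 in the clones. By clone, 25 members were above both wt libraries in ΔE2.5, 27 in ΔE2.7 and 31 in ΔP2.1, where 35.6%, 34.2% and 35.7% of all genes were.

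Several members above 1 TPM differed from clone to clone in CB cells. Hoxd9, a gene of limb and lumbar patterning, was at 0.846 and 1.32 TPM in CB wt, 0.329 in ΔE2.5, 3.49 in ΔE2.7 and 1.72 in ΔP2.1. Hoxb9 was at 1.98 and 1.48 TPM in wt, 0.975 in ΔE2.5, 0.624 in ΔE2.7 and 3.76 in ΔP2.1, and Hoxb13 at 0.385 and 0.192 in wt, 1.11, 0.282 and 0.343 in the clones. Each of the 3 genes had its highest value in a different clone. Hoxd8 was at 0.746 and 0.745 TPM in wt and 0.209, 0.826 and 1.07 in the clones, Hoxd13 at 2.31 and 2.74 in wt and 4.81, 1.90 and 4.97, and Hoxc4 at 0.295 and 0.214 in wt and 0.354, 0.627 and 0.245. For none of these 6 genes did all clones lie on 1 side of the wt libraries. Posterior members under 1 TPM were divided. Hoxa9, Hoxa10, Hoxa11, Hoxc9, Hoxc10, Hoxc11 and Hoxd11 had every CB clone above both wt libraries, some by the small margins given above. Hoxd10, at 0.29 and 0.50 TPM in wt and 0.17, 0.40 and 0.51 in the clones, had clones on either side. So did Hoxc12, at 0.052 and 0.21 in wt and 0.049, 0.050 and 0.42 in the clones.

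**Figure D4:**
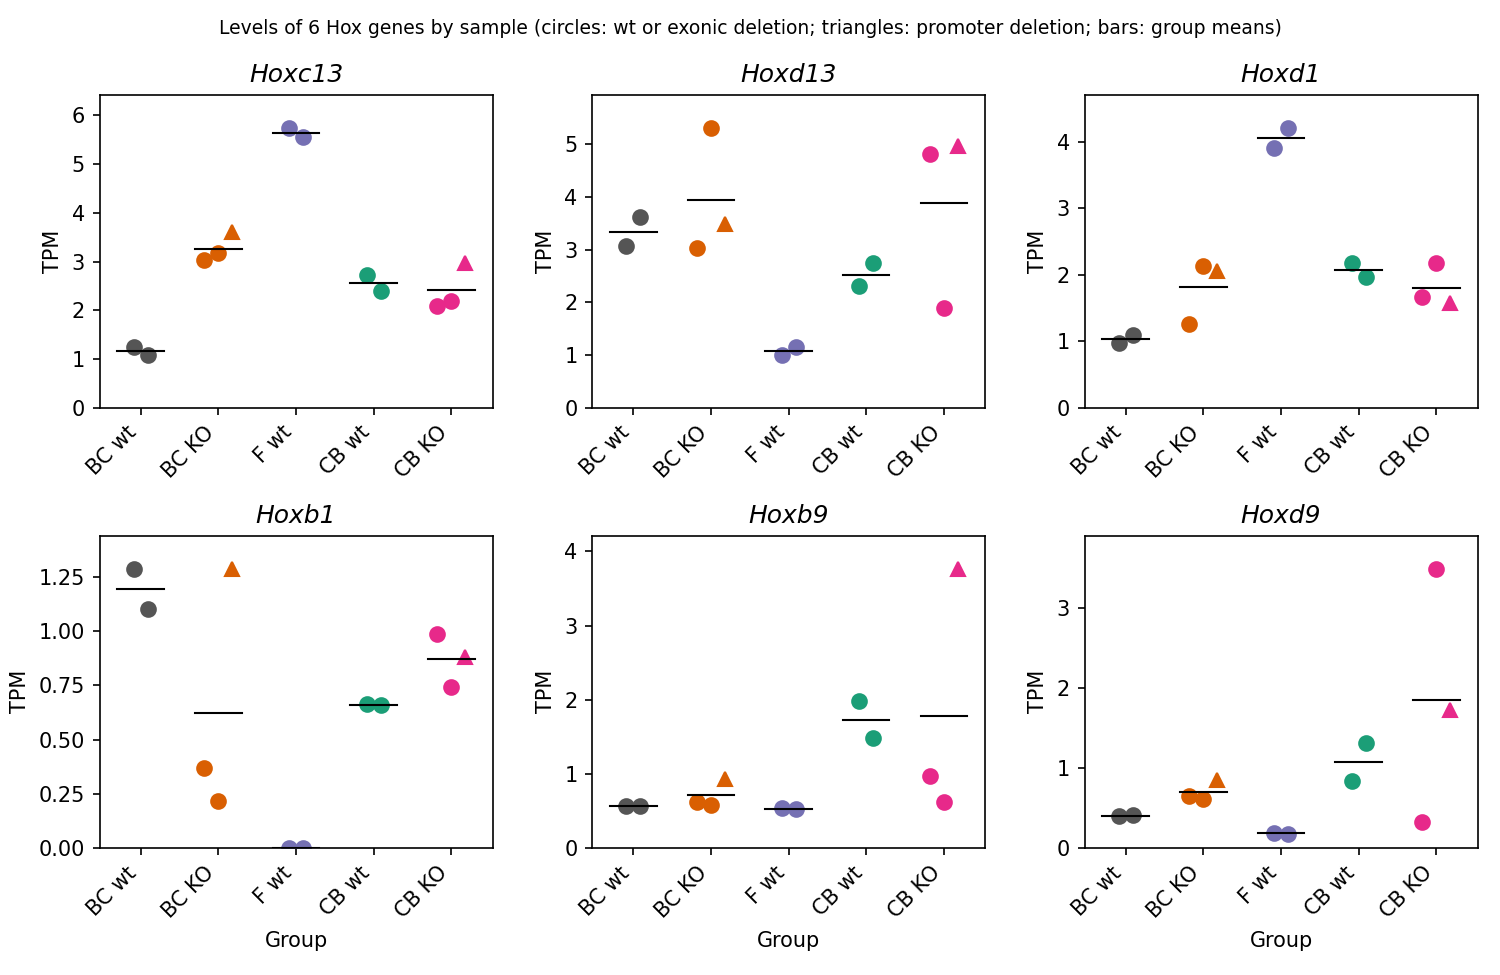
TPM (y axes, own scale in each panel) of 6 Hox genes in each library, by group (x axes), with circles for wt and exonic deletions, triangles for promoter deletions and bars for group means. Hoxc13 is higher in the 3 BC KO clones than in BC wt cells and not in CB, where its clones lie at 2.08 to 2.97 beside 2.72 and 2.39 in wt.

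Markers of other cell types moved between these libraries too. The cells had been grown on inactivated embryonic fibroblasts and freed of most of them by attachment to gelatin. The summed level of 16 embryonic fibroblast (feeder) markers was 52.0 and 48.7 TPM in BC wt and 29.4 to 39.8 in BC KO clones, 126 and 117 in CB wt, and 51.6 in ΔE2.5, 63.9 in ΔE2.7 and 169 in ΔP2.1. Of these markers, Meox2 was at 0 in ΔE2.7 and Lum in female library 1, and none elsewhere. In ΔP2.1, where Hoxb9 was highest, 6 of the 16 were above both CB wt libraries and 6 below both, and the collagen gene Col1a1 made up 102 TPM of the sum. In ΔE2.5 and ΔE2.7 11 of the 16 were below both. The 8 mesoderm markers summed to 169 and 168 TPM in CB wt, 56.6 in ΔE2.5, 288 in ΔE2.7 and 48.5 in ΔP2.1, and to 15.0 to 24.7 in BC male cells, with none at 0. T, the brachyury gene of the primitive streak, stood at 196 TPM in ΔE2.7, where Hoxd9 was highest. The CDX factor genes did not move together in ΔE2.7. Cdx2 was at 19.8 TPM beside 5.78 and 5.82 in CB wt, Cdx1 at 5.44 beside 6.16 and 5.52, and Cdx4 at 2.19 beside 7.71 and 7.25. Of 20 CDX and retinoid genes, 6 were above both CB wt libraries in ΔE2.7 and 12 below both. The 8 neural markers summed to 99.5 TPM in ΔE3 and to 40.8 to 50.2 in the other BC male libraries, and to 5.75 to 18.1 in CB cells, with Dbx1 at 0 in 7 of these 10 libraries. The 6 primitive endoderm markers summed to 8.69 and 8.50 TPM in BC wt and 12.2 to 14.6 in BC KO clones. In CB wt they summed to 25.2 and 25.4 TPM and in CB KO clones to 8.10 to 18.2. All 6 were above both BC wt libraries in ΔE1 and ΔE3, and 4 were above and 1 below in ΔP4. Below both CB wt libraries were 5 in ΔE2.5, 3 in ΔE2.7 and 6 in ΔP2.1, and above both 1, 3 and 0. The part of these cells in the Hox values was not tested.

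Over both crosses, KO against wt with cross as a term, 0 of 12 members were called by edgeR and 0 of 38 without the filter, where 0% of all genes were called in either fit. An unadjusted p under 0.05 was found for 1443 of 14298 genes, and DESeq2 called 82 genes and none of the 12 members. Among these 12, Hoxa7 had the largest positive value, a log2 fold change of 1.04 ± 0.25 (edgeR adjusted p = 0.259), and was above both wt libraries in 6 of 6 clones. Hoxa7 passed the filter only through ΔP4, so this rank too depends on the filter. Hoxb1 had the lowest of the 12, at -0.33 ± 0.46 (edgeR adjusted p = 0.834).

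The KO effect was then compared between crosses as an interaction term. edgeR called 0 of 12 members, and 0 of 38 without the filter, where it called 0.0629% and 0.0687% of all genes, and DESeq2 called Hoxc13 alone of the 12, where it called 3.88% of all genes. The log2 effect on Hoxc13 in CB minus that in BC was -1.46 ± 0.32, with an adjusted p of 0.113 by edgeR and 0.00488 by DESeq2. Its CB effect was -0.01 ± 0.24. Without ΔP2.1 the difference was -1.63 with an edgeR adjusted p of 0.0353. Hoxb1 had the largest positive difference among the 12, 1.45 ± 0.83 (edgeR adjusted p = 0.396). The BC effect on Hoxc13 shares its wt libraries with the 2 comparisons of wt lines that follow.

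The female line differed from the male BC line at most Hox genes. edgeR called all 6 members above 1 TPM in these 4 libraries, 3 higher and 3 lower in female cells, where 44.5% of 14049 genes were called. For a member that passed the filter only through the line where it was high, the filter favoured a difference, so the count over all 38 is the fuller one. Without the filter it called 30 of 38 members, where 39.8% of all genes were called. Of these, 4 were higher in female cells (Hoxc4, Hoxc12, Hoxc13 and Hoxd1) and 26 lower. The median log2 fold change of the 38 members was -2.48 (-2.05 with members at 0 set to their bounds), beside -0.02 for all genes.

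Hoxb1 was at 0 fragments in both female libraries and at 81 and 73 in male wt, at least 24.2-fold lower by a floor of 3 fragments per library. Hoxb2 was at 0.0360 and 0.0232 TPM in female cells and at 1.18 and 1.08 in male cells, and its log2 fold change was -5.16 ± 0.48 (edgeR adjusted p = 2.53e-06). Hoxb5 and Hoxb6 had no fragment in female cells either, at least 11-fold and 4.87-fold lower, and Hoxc8 was at least 2.82-fold lower. Thus the anterior and central Hoxb genes were near or at 0 in the female line. Hoxa5 was at 0.0156 and 0.0201 TPM, Hoxa7 at 0.117 and 0.150, and Hoxb7 at 0.0907 and 0.0293, all under the male values.

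The members that edgeR called higher in female cells came from Hoxc and Hoxd, at either end of the clusters. Hoxa13, which was not called, had 7 and 8 fragments in female cells beside 2 and 3 in male cells. Hoxc13 was at 5.73 and 5.56 TPM in female cells against 1.25 and 1.09 in male cells, a log2 fold change of 2.22 ± 0.13 (edgeR adjusted p = 9.03e-08). Hoxc4 was at 1.24 and 1.16 TPM against 0.317 and 0.222 (2.1 ± 0.28, edgeR adjusted p = 4.55e-05), and Hoxd1 at 3.90 and 4.20 against 0.978 and 1.1 (1.90 ± 0.16, edgeR adjusted p = 1.4e-06). Hoxd13, by contrast, was lower, at 1.00 and 1.16 TPM against 3.07 and 3.61 (-1.69 ± 0.16, edgeR adjusted p = 3.31e-06). Hoxb9 did not pass the test, with 0.534 and 0.528 TPM against 0.566 and 0.562, nor did Hoxd8, with 0.144 and 0.316 against 0.201 and 0.298. Hoxb13 was at 0.199 and 0.377 TPM and Hoxd9 at 0.192 and 0.177, and both were called lower in the fit without the filter. Neural markers summed to 3.26 and 3.43 TPM in female and 50.2 and 47.9 in male wt cells, and feeder markers to 99.4 and 101 in female cells. Of the feeder sum in female cells, Thy1 made up 67.4 and 66.2 TPM, and edgeR called 3 of 10 tested feeder markers higher and 5 lower in female than in male wt cells. The part of these cells in the Hox differences was not tested.

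Between the male wt lines, edgeR called 6 of the 7 members above 1 TPM in CB against BC cells, where 34.5% of 13828 genes were called, and DESeq2 called 5, without Hoxb1. Of the 6, Hoxb9 and Hoxd9 passed the filter only through CB cells and Hoxb1 and Hoxb2 only through BC cells. The filter thus favoured a difference in these 4, and their number is no separate evidence. With the spread estimated over all 12 libraries these 4 calls were lost, with edgeR adjusted p-values of 0.0842 to 0.272. Without the filter edgeR called 20 of 38, 5 higher and 15 lower in CB, where 29.8% of all genes were called. With all 12 libraries and no filter it called 9 of 38, beside 4554 of 20581 genes, a share close to that of all genes. Hoxb9 was higher in CB cells by a log2 value of 1.55 ± 0.21 (edgeR adjusted p = 0.000671) and Hoxd9 by 1.33 ± 0.30 (0.00696 by the same test). Hoxc13 and Hoxd1 were higher by 1.06 ± 0.15 and 0.92 ± 0.18 (edgeR adjusted p = 0.000838 and 0.00338). Hoxb2 was lower in CB cells, at -1.65 ± 0.30 (edgeR adjusted p = 0.00276), and Hoxb1 at -0.91 ± 0.22 (0.00811 by the same test). Hoxb6, at 0 in both CB wt libraries, was at least 3.23-fold lower than in BC. Hoxd13 differed by -0.47 ± 0.15, under the 1.5-fold limit, with an edgeR adjusted p of 0.0259. The 15 lower members of the fit without the filter comprised 5 of Hoxa, 8 of Hoxb, 1 of Hoxc and 1 of Hoxd. The female line and the CB line were both compared with the same 2 BC wt libraries, as were the BC clones, so these differences are not independent of each other. In CB wt cells 9 of the 12 tested feeder markers were called higher than in BC wt, and 2 lower.

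SNPs between BL6 and cast let some fragments be given to an allele, 8.38% of the Hoxc13 fragments and 24.0% of those of Hoxd1. At least 10 such fragments were found in a library for 12 members, and in every library only for Hoxd1, while 7 members had none at all. Hoxd1 came more from the cast allele. Its BL6 share was 23.5% and 53.3% in BC wt, 20.8%, 41.7% and 38.5% in ΔE1, ΔE3 and ΔP4, and 36.8% and 37.0% in female wt. In CB cells it was 14.3% and 22.2% in wt and 21.4%, 23.5% and 26.7% in the clones. Every library lay below its own autosomal BL6 share of 45.5% to 55.8%. Over all libraries 95 of 295 SNP fragments were BL6, or 32.2% (95% Wilson interval 27.1% to 37.7%, counting error only).

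**Figure D5:**
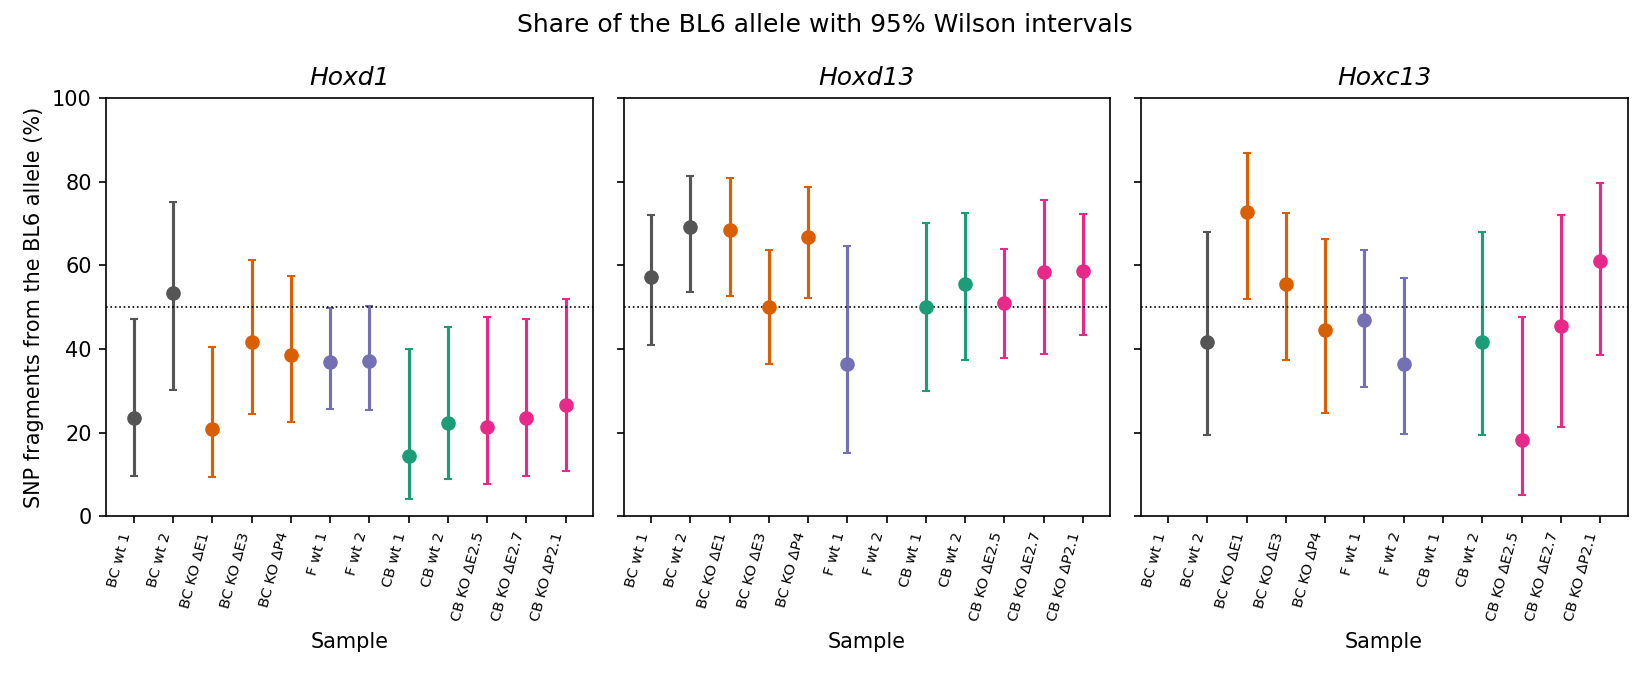
Share of SNP fragments from the BL6 allele (y axis, percent) in each library with at least 10 such fragments (x axis), in 1 panel for each Hox gene, with 95% Wilson intervals and a dotted line at 50%. Most Hoxd1 points lie below the line in both crosses, and the intervals are wide, as from 4.01% to 39.9% in CB wt library 1.

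In the wt libraries, edgeR called Hoxd1 of the 3 members tested between the BL6 and the cast allele, where 24.4% of all genes were called. The log2 ratio was -1.39 ± 0.32 (adjusted p = 0.0191 by edgeR), and the call was lost without either CB wt library, at -1.23 and -1.60. Hoxd13 had a BL6 share of 58.0% over all libraries (53.0% to 62.7%) and Hoxc13 one of 49.2% (42.3% to 56.2%), and neither was called. Between the maternal and paternal alleles 0 of 3 members were called by edgeR, where 1.09% of all genes were, and Hoxd1 was nearest, at 0.74 ± 0.32 (adjusted p = 0.393, unadjusted p = 0.059 in edgeR). The KO effect did not pass the edgeR test of a difference between alleles for any of 4 members in BC or 5 in CB, where 0.0243% and 0% of all genes were called, and none of these members had an unadjusted p under 0.05. The largest was Hoxd9 in CB, at 1.64 ± 0.69 (edgeR adjusted p = 1).

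The genes that act with or on the Hox clusters, on lists chosen with earlier results of these data known, gave 0 calls in KO against wt in either cross by edgeR. The lists were 10 TALE cofactors of HOX proteins such as the PBX and MEIS families, 20 CDX and retinoid genes, 5 ParaHox and EVX genes, 22 neighbours of the clusters (20 in the tables), 23 RNAs within the clusters (16 in the tables), and 9 genes of PRC2 and the KDM6 family. An unadjusted edgeR p under 0.05 was found in BC for 1 higher cofactor, 3 lower CDX and retinoid genes, 3 higher neighbours and 1 lower, and 1 higher gene of PRC2 and KDM6. In CB it was found for 1 lower cofactor, 3 higher CDX and retinoid genes and 2 lower, 4 higher neighbours and 1 lower, and 3 higher genes of PRC2 and KDM6 and 2 lower. DESeq2 called 3 genes of all these lists, the retinoid receptor genes Rarg (log2 fold change -0.74, adjusted p = 0.00044) and Rxrg (-1.41, adjusted p = 3.39e-06) lower in BC KO and Cdx4 (-1.47, adjusted p = 8.02e-07) lower in CB KO. Kdm6a itself, with a log2 fold change of -2.60 in BC and -3.95 in CB over exonic and promoter clones that differ in the reads they keep, was called by neither tool (edgeR adjusted p = 0.509 and 0.19).

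In female against male wt cells edgeR called 0 of 10 tested cofactors higher and 4 lower, 3 and 6 of 15 CDX and retinoid genes, 5 and 1 of 16 neighbours, and 1 and 2 of 9 genes of PRC2 and KDM6, where 44.5% of all genes were called in either direction. In CB against BC wt the counts were 3 and 0 of 10, 7 and 4 of 15, 2 and 2 of 17, and 1 and 3 of 9, where 34.5% of all genes were. Of the 5 ParaHox and EVX genes only 1 was tested in each of these comparisons, Gsx2 in the first and Evx1 in the second, and each was called higher. Gsx2 passed the filter only through the female line (1.07 TPM in library 1) and Evx1 only through CB cells (2.42 in both wt libraries). The filter thus picked each gene through the line where it was high, and these calls are no separate evidence. Of the RNAs within the clusters 1 of 4 and 1 of 3 were called higher. The whole chromosomes did not shift with the clusters: for chromosomes 2, 6, 11 and 15 the median log2 ratio of genes to wt lay within -0.07 to 0.09 of that of all genes in every library, and the median BL6 share within 47.1% to 52.9%.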

How the data were processed

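RNA was measured as single-end 75-base reads from 12 libraries. Per the submitters' processing notes and the study's methods, the reads were mapped with Bowtie2 2.2.5 and TopHat to the BL6 genome (mm10) and to a cast genome built from it, kept at a mapping quality of at least 30 and split by SNPs into BL6 and cast fragments. The authors made estimated counts (expected counts) per gene from these fragments and deposited them, unnormalized, for both genomes together, for the BL6 genome and for each allele. The combined counts were rounded and fitted with edgeR 4.0.16 (R 4.3.3, limma 3.58.1, TMM factors, quasi-likelihood test, Benjamini-Hochberg adjustment over all genes tested), on genes above 1 TPM in at least 1 library of the fit. TPM were computed with the length of the longest transcript (GENCODE vM21), and 1036 genes without annotation took the median length of 2284 bases. The 3 genes of the off-target deletion were left out of fits with BC clones. DESeq2 1.42.0, other normalization and filters, a fit of all 12 libraries, ΔE1 and ΔE3 averaged into 1 sample, the BL6 counts alone and each library left out were tried, and an adjusted p that DESeq2 left as NA stayed NA. Allele tests used genes with a mean of at least 10 SNP fragments. The scripts were tested on simulated data: edgeR recovered 100% of 200 genes changed by 1.5 on the log2 scale in the BC comparison over 13808 genes, and 100% of 200 genes of 10 to 100 fragments changed by 2 on that scale over 19903 genes, with 13 and 5 false calls. In the allele test in BC it recovered 79% of 200 genes changed by 1.5, over 13247 genes. In the measured BC libraries edgeR called 4 of 13805 genes in KO against wt, and the deleted Kdm6a was not among them. Whether the recovery rates hold at the spread between the KO clones was not tested. Libraries held 49975599 to 89070402 fragments, and the 2 wt libraries of each group differed by more than counting error over all genes. Groups came from the sample labels. The study calls the wt libraries of a cross biological replicates and, elsewhere, clones. Whether they came from separate cultures is not given in the sources used here, and if not, p-values measure only the spread between these libraries, which may be technical. KO libraries are separate clones, with ΔE1 and ΔE3 from 1 editing event.

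Members and gene lists were chosen with earlier results of these data known. Members above 1 TPM in a library are given in every library and the others by range and count, with full statistics for members that edgeR or DESeq2 called in a fit with the TPM filter and for the largest change each way. A further Hox gene of the tables is not reported here. Python 3.11.15 was used for summaries and figures.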

Additional observations from a re-analysis of the deposited data

Results flagged for a closer look

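Hoxd11, a gene of limb and lumbosacral patterning, was singled out because every BC clone was below both wt libraries and every CB clone above both. The edgeR test of the difference between the crosses, with an unadjusted p of 0.00396, used the same values that picked the gene. It is therefore no separate evidence. It had 27 and 28 fragments in BC wt and 9, 15 and 17 in ΔE1, ΔE3 and ΔP4, so that every BC clone was below wt. In CB it had 10 and 8 fragments in wt and 17, 16 and 28 in ΔE2.5, ΔE2.7 and ΔP2.1, so that every clone was above wt. The log2 KO effect was -1.06 ± 0.43 in BC and 1.22 ± 0.45 in CB. Its value in CB minus BC was 2.26 ± 0.64 in the edgeR quasi-likelihood fit without the TPM filter, with an adjusted p of 0.184. The difference did not pass the correction over all genes, and Hoxd11 stayed under 1 TPM in every library.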

How the results depend on the processing

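Of 335 alternatives for 28 results on single members, 307 kept the direction and the side of the threshold, 12 lost a call, 8 gained one and 8 changed sign. The number of members called in KO against wt in BC was 1 (Hoxc13) under DESeq2 and with all 12 libraries in 1 fit, each with and without the TPM filter. That of the difference between crosses was 1 under DESeq2 with or without the filter and with all 12 libraries, 0 with all 12 and no filter, and 0 to 1 with 1 library left out, the call appearing without ΔP2.1. For female against male wt the 6 of 6 became 30 of 38 without the filter (7870 of 19754 genes) and 26 of 38 under DESeq2 without it (6994 of 19754). The count was 3 of 3 on genes with a mean of at least 1 TPM (5786 of 13436) and 10 of 13 with all 12 libraries (5686 of 14668). With all 12 libraries and no filter it was 27 of 38 (6553 of 20581 genes). For CB against BC wt the 6 of 7 became 20 of 38 without the filter (5830 of 19587 genes) and 13 of 38 under DESeq2 without it (5178 of 19587). The count was 3 of 4 on genes with a mean of at least 1 TPM (4439 of 13321) and 3 of 13 with all 12 libraries (4089 of 14668). With all 12 libraries and no filter it was 9 of 38 beside 4554 of 20581 genes, so that the share of the members was close to that of all genes. More or fewer members enter these fits with another filter, and the cause of the other changes was not tested. The calls lost between the wt lines with all 12 libraries were those of Hoxb1, Hoxb2, Hoxb9 and Hoxd9.

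With 1 library left out, Hoxd1 alone of the allele tests was called or not (0 to 1 members, lost without either CB wt library), and the CB ratio of the Hoxa sum ranged from 1.68 to 2.27. The BC ratio of the Hoxa sum, 1.40 over all clones, ranged from 0.905 without ΔP4 to 1.67, and that of the Hoxb sum, 0.837, from 0.559 without ΔP4 to 0.979. The sign changed in the KO effect between alleles for Hoxb2 in BC (-1.75 to 0.11), Hoxd1 in BC (-0.73 to 1.14) and Hoxc13 in CB (-0.94 to 0.43), and in the maternal to paternal ratio of Hoxc13 (-0.30 to 0.14). A minimum of 20 SNP fragments left 7 members with an allele share, and one of a mean of 30 left no member to test in the wt allele comparisons.

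Over all genes the numbers of calls moved more. With ΔE1 and ΔE3 averaged, 0 members were called in BC, over both crosses or between them. KO against wt in BC gave 4 genes by edgeR, 260 by DESeq2 and 61 with all 12 libraries, and 1 to 4 with 1 library left out, the lowest without ΔE1. In CB it gave 0, 494 and 56, and 927 without ΔP2.1, and over both crosses 0, 82 and 25, and 22 without ΔP4. The difference between crosses gave 9, 555 and 119, with 88 without ΔP4, 306 without ΔP2.1, and 3 to 17 with another library left out. The allele test of the KO effect in BC gave 3 genes and 528 without ΔP4. Calls of BL6 against cast numbered 3028, and 1579 and 1549 without either CB wt library, and those of maternal against paternal 135, 72 to 91 without a BC or female wt library and 0 without either CB wt library.

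The wt groups share the numbers 1 and 2. The correlations of same-numbered deviations from the group means were 0.25, 0.11 and 0.0016, and with 2 pairs the libraries share only a number. With the number as a replicate block 6 members were called in female against male wt (6283 genes) and 6 in CB against BC wt (4825 genes). Alternatives that change the filter together with the tool, the fit or a left-out library, the TMM scale of the counts of clones above or below wt, and the left-out libraries for cluster sums were chosen after seeing the data. Of the limits, 25 of 38 members never passed 1 TPM, 2 wt libraries a cross leave little to estimate the spread from, and the members differed between clones by more than counting error (mean chi-square 4.05 to 12.2 in 4 pairs of clones, where counting alone gives 1).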
